A study of Homo sapiens with 6 samples.

Results

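The data describe 35 genes of central carbon metabolism, chosen by symbol: those that bring pyruvate into the mitochondrion, run the tricarboxylic acid (TCA) cycle and feed it with glutamine. All 35 were found among the 56305 genes counted, and 34 passed the expression filter, out of 20399 genes tested. MOLM13 is an acute myeloid leukemia cell line that carries FLT3-ITD, an internal duplication in the receptor FLT3. Cells of this 1 line were treated for 24 h with 1 μM ZW27941 (3 libraries) or with the solvent DMSO (3 libraries), for which the labels also write 1 μM. ZW27941 is a proteolysis-targeting chimera that brings the m6A writer METTL3 to the ubiquitin ligase VHL. It acts on the METTL3 protein, so transcript counts do not check the labels of the libraries. RNA was read as the number of sequenced fragments per gene symbol, without normalization.

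Pyruvate from glycolysis crosses the inner mitochondrial membrane through a carrier made of MPC1 and MPC2. Pyruvate dehydrogenase then turns it into acetyl-CoA, or pyruvate carboxylase turns it into oxaloacetate. The TCA cycle joins these products to citrate and oxidizes it stepwise, which yields NADH for respiration and intermediates for synthesis. Glutamine enters through SLC1A5 and supplies 2-oxoglutarate, a route on which many leukemia cells rely.

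On ZW27941, 16 of the 34 members tested fell by small amounts and 2, OGDH and PC, rose (edgeR quasi-likelihood, Benjamini-Hochberg adjusted p under 0.05), and 16 did not pass. Among all genes tested, 13.8% were lower and 16.3% were higher by the same rule, against 47.1% and 5.88% of the members. Of the members tested, only ME1 had a mean below 5 CPM (counts scaled to library size) in DMSO. The set of all genes tested also holds many weaker genes. In simulated data, 43 of 100 changes of 0.2 on the log2 scale were recovered, and 43 of 53 at 5 CPM or more. The median absolute log2 fold change was 0.090 for the members and 0.115 for all genes tested. The part of expression level in the shares given here was not tested. The log2 fold changes of the members ran from −0.18 to 0.26 with a median of −0.083, where the median over all genes tested was −0.0019. The groups did not overlap in 20 members that were lower and 3 that were higher, which compares with 19.9% and 21.7% of all genes tested. When TMM was exchanged for upper quartile scaling, 20 members were lower and 2 higher, and the share of lower genes among all calls went from 45.8% to 57.9%. Without DMSO replicate 2, 11 members were lower and 2 higher. In bulk RNA, fewer cells of a type and less RNA per cell cannot be told apart.

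**Figure D1:**
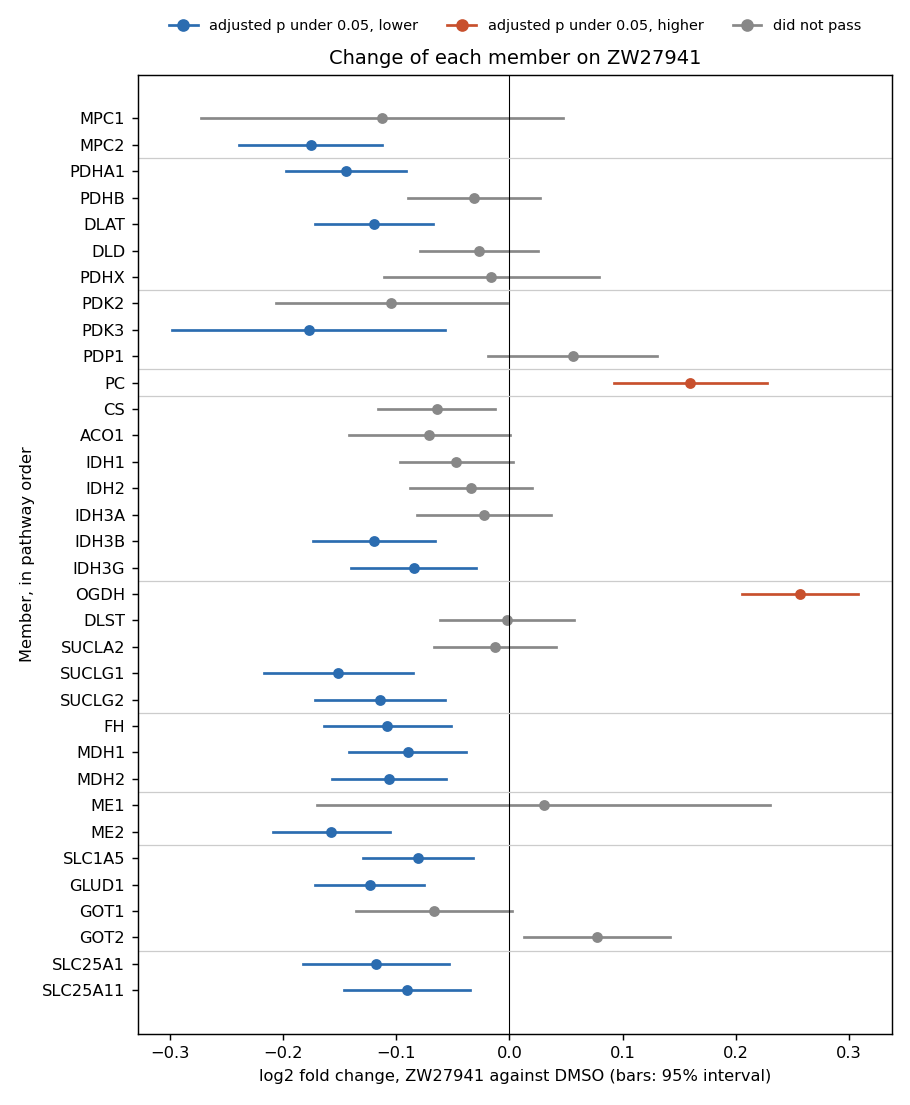
The log2 fold change of each tested member on ZW27941 against DMSO (x axis), with its 95% interval, in pathway order (y axis). Blue members passed an adjusted p under 0.05 and were lower, red ones passed and were higher, and gray ones did not pass; OGDH and PC are the 2 red members.

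The libraries held between 143454176 and 178744976 counts on genes. A member such as PDK3, at 905 to 1161 counts per library, was thus still counted deeply. The authors' methods state fewer raw reads per sample than these totals, and the sources used here do not explain the difference. HTSeq could not assign 37.4% to 39.8% of the reads to a single gene. Its share of reads that matched no counted feature was 11.9% to 12.4% in DMSO and 10.5% to 11.4% on ZW27941. The part of this in the results was not tested. The labels do not say whether the 3 libraries of a group came from separate cultures, so p-values measure the spread between these libraries, which may be technical. All 12 markers of acute myeloid leukemia and monocytic cells passed the filter, with CD68 lowest at 0.231 CPM (counts scaled to library size with TMM factors) in DMSO. Of these, 6 were higher and 1 was lower on ZW27941, and CSF1R had a log2 fold change of 0.40. Of 14 markers of other cell types, 6 passed the filter. HBB, HBA1 and CDH5 had no count. The summed level of the 14 went from 276.3 to 286.1 CPM in DMSO and from 343 to 350.9 CPM on ZW27941, with most of it in PECAM1, a gene that monocytic cells also express. The part of these markers in the results was not tested.

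At the level of RNA per exon length, the members spanned a wide range in DMSO. Levels here are CPM per kb of annotated exons. IDH2, the mitochondrial NADP-dependent isocitrate dehydrogenase, was highest at 75.6 ± 0.736 CPM per kb (SD, n = 3). MDH2, the mitochondrial malate dehydrogenase, followed at 67.7 ± 0.168, then GLUD1 (glutamate dehydrogenase) at 66.3 ± 0.585 and the glutamine transporter SLC1A5 at 61.5 ± 0.575 CPM per kb. These neighbours lay further apart than their SDs. At the low end, ME1, the cytosolic malic enzyme, was at 0.853 ± 0.116 and PDK3, a kinase that inhibits pyruvate dehydrogenase, at 1.44 ± 0.0454 CPM per kb. OGDH was at 20.98 and DLST at 13.6 CPM per kb, although both are subunits of the same enzyme. ME3, the second mitochondrial malic enzyme, had 0, 2 and 1 counts in the DMSO libraries and 0 in each ZW27941 library, and was not tested. The length sums all exons annotated in GENCODE v29, whether or not these cells use them, and was 16243 bases for ME2.

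**Figure D2:**
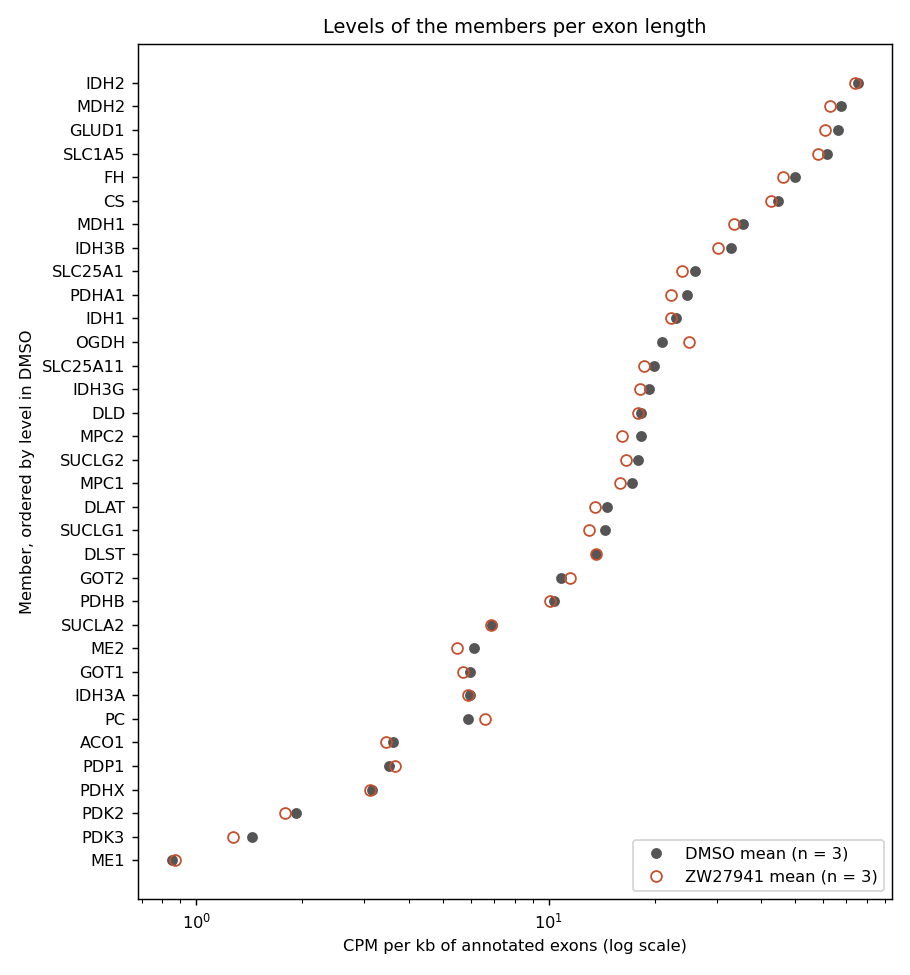
Mean level of each member but ME3 in CPM per kb of annotated exons (x axis, log scale), ordered by the DMSO level (y axis). Filled points are DMSO means and open points ZW27941 means (n = 3 each); the order spans from ME1 at 0.853 to IDH2 at 75.6 CPM per kb, and the shifts between groups are small against it.

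OGDH, the thiamine-dependent first subunit of the 2-oxoglutarate dehydrogenase complex, rose more than any other member. Its level was 108, 111 and 108 CPM in DMSO and 132, 129 and 130 CPM on ZW27941. Every ZW27941 library lay above every DMSO library. The log2 fold change was 0.26 (SE 0.025, edgeR quasi-likelihood, Benjamini-Hochberg adjusted p = 9.91e-08), a rise of 19.5%. It stood at the 89.4th percentile of log2 fold changes over all genes tested and was between 0.25 and 0.27 whichever library was left out.

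The other subunits of that complex did not pass. DLST, its succinyltransferase core, was at 61.9, 62.2 and 61.7 CPM in DMSO and 59.4, 62.4 and 63.8 CPM on ZW27941, so the groups overlapped. Its log2 fold change was −0.0020 with a 95% interval from −0.061 to 0.057, and its sign changed under several alternatives, among them library size only (0.0078). DLD, the dihydrolipoamide dehydrogenase that this complex shares with pyruvate dehydrogenase, had a log2 fold change of −0.027 (95% interval −0.079 to 0.026). The ratio of OGDH to DLST counts within a library was 1.75, 1.79 and 1.75 in DMSO and 2.23, 2.07 and 2.04 on ZW27941. This pair was chosen after its values were seen, so the ratio is given with no test.

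PC, pyruvate carboxylase, which makes oxaloacetate from pyruvate, was the other member that rose. It was at 35.8, 35.5 and 33.5 CPM in DMSO and 40.2, 37.7 and 39.1 CPM on ZW27941, without overlap. The log2 fold change was 0.16 (SE 0.033, edgeR quasi-likelihood, Benjamini-Hochberg adjusted p = 7.02e-04), a rise of 11.7%. PC lies at chr11:66848233-66958376 on the minus strand (GENCODE v29, GRCh38), and 10.5% of its exon bases overlap exons of LRFN4 on the opposite strand. LRFN4 was also higher, with a log2 fold change of 0.14 (edgeR quasi-likelihood, Benjamini-Hochberg adjusted p = 0.00267). Whether counting used strand is not given in the sources used here, so reads of this stretch cannot be told apart between them.

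Of the 7 members of the pyruvate carrier and the pyruvate dehydrogenase complex, MPC2, PDHA1 and DLAT fell and the other 4 did not pass. MPC2, a subunit of the pyruvate carrier, was at 47.6, 44.8 and 47.5 CPM in DMSO and 42.1, 40.3 and 41.4 CPM on ZW27941, and the groups did not overlap. Its log2 fold change was −0.18 (SE 0.030, edgeR quasi-likelihood, Benjamini-Hochberg adjusted p = 1.35e-04). MPC1, the partner that MPC2 needs to form the carrier, was at 29.6, 28.4 and 21.8 CPM in DMSO and 22.7, 23.2 and 27.8 CPM on ZW27941. DMSO replicate 3 was below every ZW27941 library, and ZW27941 replicate 3 was above DMSO replicate 3 and below the other DMSO libraries. MPC1 did not pass (log2 fold change −0.11, SE 0.077, edgeR quasi-likelihood, Benjamini-Hochberg adjusted p = 0.299). It passed without DMSO replicate 3 (−0.24, adjusted p = 0.00457 from the same edgeR test) and without ZW27941 replicate 3 (−0.21, adjusted p = 0.0117 from that test), and with no filter on low counts (−0.11, adjusted p = 0.0163), while the values across omitted libraries reached −0.027.

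In pyruvate dehydrogenase, PDHA1, the alpha subunit of the first enzyme and the site where the kinases act, was at 111, 110 and 111 CPM in DMSO and 99.2, 98.2 and 103 CPM on ZW27941, without overlap, and fell by 9.51% (edgeR quasi-likelihood, Benjamini-Hochberg adjusted p = 1.75e-04). DLAT, the acetyltransferase core, had a log2 fold change of −0.12 (adjusted p = 9.71e-04 from the same edgeR test). PDHB, the beta subunit that pairs with PDHA1, had a log2 fold change of −0.031 with a 95% interval from −0.090 to 0.027, and PDHX, which anchors DLD to the core, of −0.016 with an interval from −0.11 to 0.079. PDHX changed sign without DMSO replicate 2 (0.0047) and without ZW27941 replicate 1 (0.013). The ratio of PC to PDHA1 counts, also chosen after values were seen and given with no test, was 0.324, 0.322 and 0.302 in the DMSO libraries and 0.405, 0.384 and 0.379 in the ZW27941 libraries.

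Of the members that switch pyruvate dehydrogenase off by phosphorylation, PDK3 fell. It was at 7.32, 7.19 and 6.88 CPM in DMSO and 6.44, 6.28 and 6.19 CPM on ZW27941 (log2 fold change −0.18, SE 0.058, edgeR quasi-likelihood, Benjamini-Hochberg adjusted p = 0.0238). The 3 ZW27941 values were below all DMSO values. PDK3 no longer passed without DMSO replicate 1 (adjusted p = 0.0948), DMSO replicate 2 (0.0764) or ZW27941 replicate 2 (0.0644), each from the same edgeR test. PDK2, another kinase, had a log2 fold change of −0.10 and did not pass (edgeR, adjusted p = 0.116) except without ZW27941 replicate 3 (−0.14, edgeR, adjusted p = 0.0360), and SAMD14 overlaps 38.6% of its exon bases on the opposite strand. PDP1, a phosphatase that switches the enzyme back on, had a log2 fold change of 0.056 with a 95% interval from −0.019 to 0.13. PDK1, a kinase that is not a member, had a higher CPM than PDK2 and PDK3, at 85.2 in DMSO, not scaled by exon length. Its groups overlapped and it did not pass (log2 fold change −0.054, edgeR quasi-likelihood, Benjamini-Hochberg adjusted p = 0.172).

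**Figure D3:**
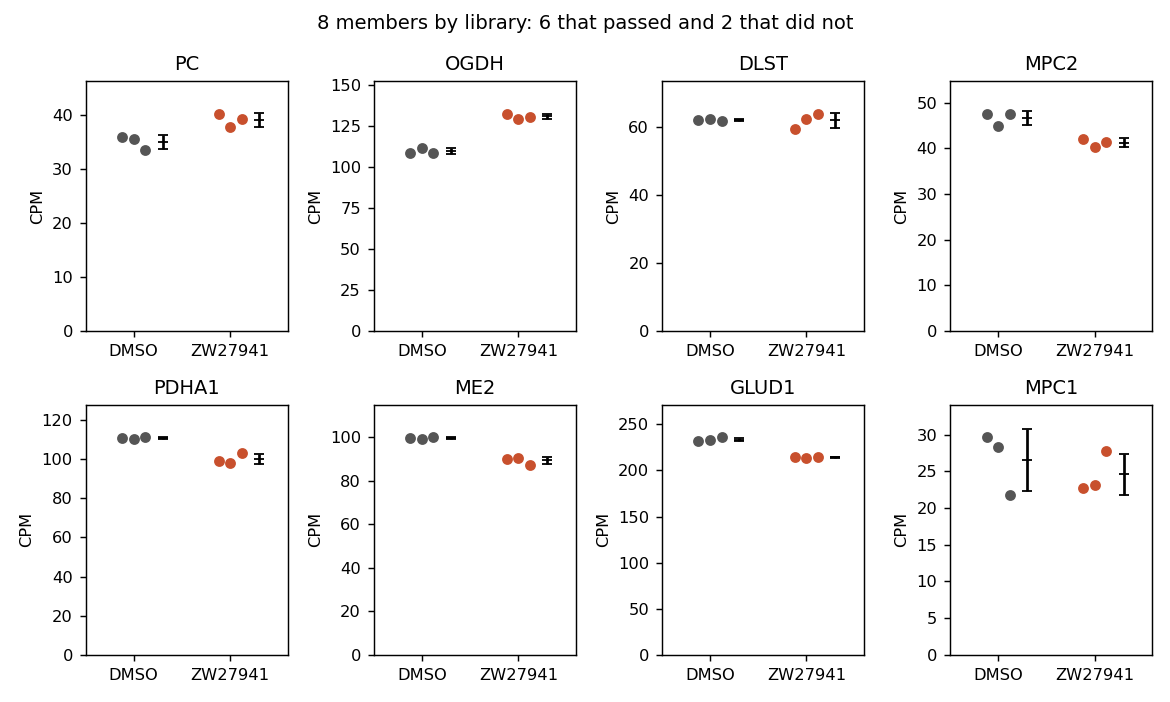
CPM of 8 members in each library (points), with the mean and SD of each group (bars, n = 3), on axes that start at 0. OGDH and PC sit higher and MPC2, PDHA1, ME2 and GLUD1 lower in all ZW27941 libraries; DLST and MPC1 overlap between groups.

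From citrate to 2-oxoglutarate, 2 of 7 members fell and all 7 means were lower on ZW27941. IDH3B, a regulatory subunit of the NAD-dependent isocitrate dehydrogenase, was at 83.7, 85.4 and 83.9 CPM in DMSO and 77.3, 76.1 and 79.5 CPM on ZW27941 (log2 fold change −0.12, SE 0.026, edgeR quasi-likelihood, Benjamini-Hochberg adjusted p = 0.00125). The groups did not overlap. IDH3G, the other regulatory subunit, had a log2 fold change of −0.085 (adjusted p = 0.0184 from the same edgeR test) and no longer passed without DMSO replicate 2 (0.0723), DMSO replicate 3 (0.0531) or ZW27941 replicate 1 (0.0647). IDH3A, the catalytic subunit, had a log2 fold change of −0.023 with a 95% interval from −0.082 to 0.037. ACSBG1, which was higher (log2 fold change 0.46), overlaps 38.2% of the annotated exon bases of IDH3A on the opposite strand.

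CS, citrate synthase, which opens the cycle, was at 292, 282 and 284 CPM in DMSO and 270, 271 and 279 CPM on ZW27941. The groups did not overlap, and CS lay just outside the threshold (log2 fold change −0.064, edgeR quasi-likelihood, Benjamini-Hochberg adjusted p = 0.0534). It passed with RLE (adjusted p = 0.0438) and upper quartile normalization (0.00974), with the filter of 10 counts in every library (0.0439), by DESeq2's Wald test (0.0209) and in edgeR without ZW27941 replicate 3 (0.00925). ACO1, the cytosolic aconitase that also acts as an iron sensor, had a log2 fold change of −0.071 (95% interval −0.14 to 0.00014), and passed without ZW27941 replicate 1 (−0.11, edgeR, adjusted p = 0.0407) and with upper quartile normalization (adjusted p = 0.0410). The cytosolic and mitochondrial NADP-dependent isocitrate dehydrogenases IDH1 and IDH2 had log2 fold changes of −0.047 and −0.034, with 95% intervals from −0.097 to 0.0030 and from −0.088 to 0.020. IDH1 passed with upper quartile normalization (edgeR, adjusted p = 0.0306) and IDH2 without ZW27941 replicate 3 (−0.064, edgeR, adjusted p = 0.0388).

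Of the succinyl-CoA synthetase genes, which make ATP or GTP from succinyl-CoA, SUCLG1 and SUCLG2 fell and SUCLA2 did not pass. SUCLG1, the alpha subunit that both forms share, was at 64.3, 61.0 and 60.3 CPM in DMSO and 53.8, 55.1 and 58.1 CPM on ZW27941 (log2 fold change −0.15, SE 0.032, edgeR quasi-likelihood, Benjamini-Hochberg adjusted p = 8.91e-04). SUCLG2, the beta subunit of the GTP-forming enzyme, had a log2 fold change of −0.11 (adjusted p = 0.00300 from the same edgeR test). The groups did not overlap for either gene. SUCLA2, the beta subunit of the ATP-forming enzyme, had a log2 fold change of −0.013 with a 95% interval from −0.067 to 0.041.

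FH, MDH2 and MDH1, the fumarate hydratase and the mitochondrial and cytosolic malate dehydrogenases, all passed and were lower. MDH2 was at 246, 247 and 247 CPM in DMSO and 226, 226 and 235 CPM on ZW27941, without overlap, and fell by 7.10% (log2 fold change −0.11, SE 0.024, edgeR quasi-likelihood, Benjamini-Hochberg adjusted p = 0.00193). FH had a log2 fold change of −0.11 (edgeR, adjusted p = 0.00412). MDH1, which serves the malate-aspartate shuttle, had one of −0.090 (edgeR, adjusted p = 0.00831), and −0.072 without ZW27941 replicate 1, where it no longer passed (0.0590). ME2, the mitochondrial malic enzyme that turns malate back into pyruvate, was at 99.9, 99.2 and 100.02 CPM in DMSO and 90.1, 90.7 and 87.5 CPM on ZW27941. The log2 fold change of ME2 was −0.16 (SE 0.025, edgeR quasi-likelihood, Benjamini-Hochberg adjusted p = 5.42e-05), and among the members that fell it had the lowest p. ME1 had a log2 fold change of 0.030 with a wide 95% interval from −0.17 to 0.23, and its sign turned without DMSO replicate 2 (−0.0049), DMSO replicate 3 (−0.043) or ZW27941 replicate 1 (−0.054).

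In glutamine use, SLC1A5 and GLUD1 fell. SLC1A5, which brings glutamine across the plasma membrane, was at 203, 207 and 205 CPM in DMSO and 192, 194 and 195 CPM on ZW27941 (log2 fold change −0.081, SE 0.023, edgeR quasi-likelihood, Benjamini-Hochberg adjusted p = 0.0111). The groups did not overlap, but the call was lost without DMSO replicate 2 (−0.073, edgeR, adjusted p = 0.0548). GLUD1, which turns glutamate into 2-oxoglutarate, was at 232, 233 and 236 CPM in DMSO and 215, 213 and 215 CPM on ZW27941 (log2 fold change −0.12, SE 0.023, edgeR quasi-likelihood, Benjamini-Hochberg adjusted p = 3.14e-04). GLUD1 has near-identical copies that could share its reads. Of these, GLUD1P3 had a log2 fold change of 0.13 (edgeR, adjusted p = 0.215) and GLUD2 of −0.10 (edgeR, adjusted p = 0.504), at 4.45 and 1.38 CPM in DMSO against 233 CPM for GLUD1.

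The aspartate transaminases, which link glutamate to aspartate, did not pass. GOT2, the mitochondrial form, was at 41.6, 41.6 and 39.5 CPM in DMSO and 43.7, 41.7 and 44.1 CPM on ZW27941 (log2 fold change 0.077, edgeR quasi-likelihood, Benjamini-Hochberg adjusted p = 0.0656). It passed without ZW27941 replicate 2 (0.10, edgeR, adjusted p = 0.0347), with library size only (adjusted p = 0.0417) and with no filter (0.0457). GOT1, the cytosolic form, had a log2 fold change of −0.067 (95% interval −0.14 to 0.0022), and passed with upper quartile normalization (edgeR, adjusted p = 0.0426). The export carriers fell. SLC25A1, which carries citrate to the cytosol for lipid synthesis, was at 54.6, 56.2 and 52.6 CPM in DMSO and 49.2, 49.1 and 52.2 CPM on ZW27941 (log2 fold change −0.12, SE 0.031, edgeR quasi-likelihood, Benjamini-Hochberg adjusted p = 0.00602). SLC25A11, the 2-oxoglutarate and malate exchanger, had a log2 fold change of −0.090 (edgeR, adjusted p = 0.0136). Without DMSO replicate 2 neither passed (edgeR, adjusted p = 0.0513 and 0.0687), and SLC25A11 was also lost without ZW27941 replicate 2 (0.0541).

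**Figure D4:**
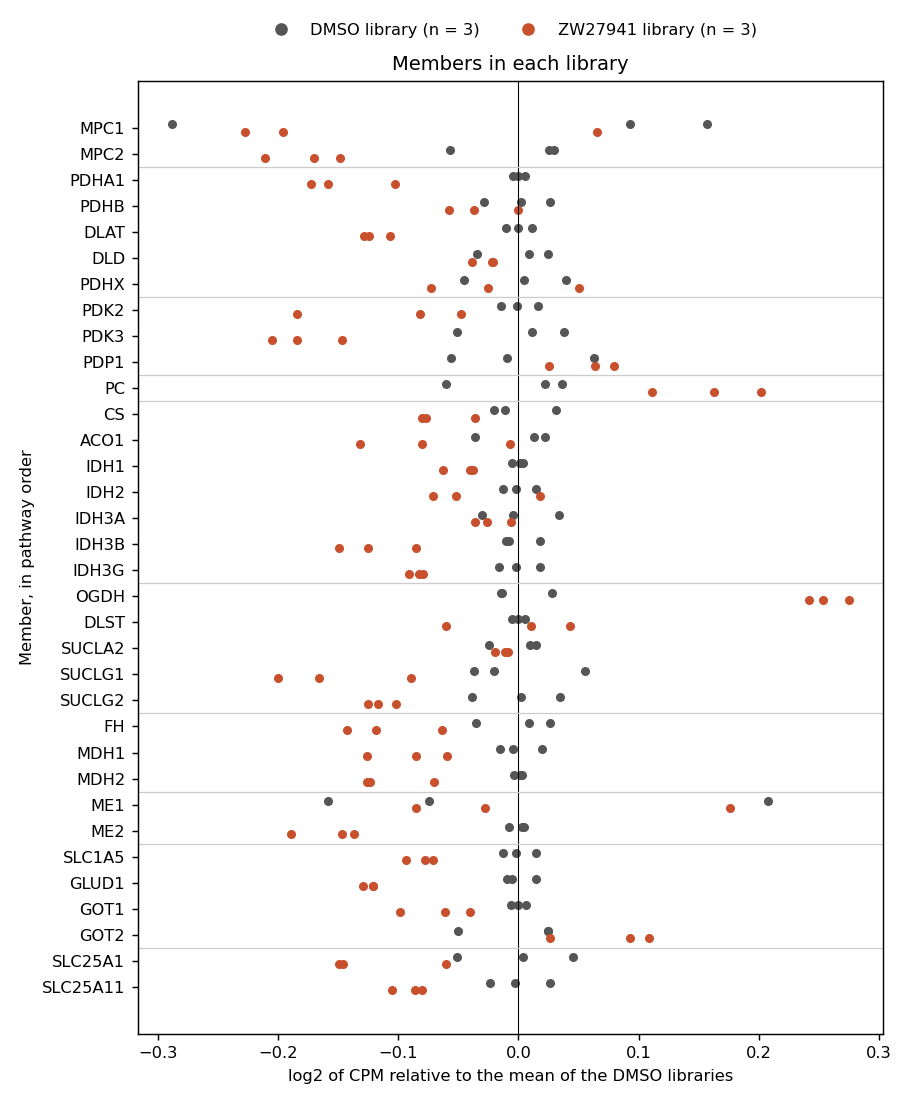
Each tested member in each library, as log2 of its CPM over the mean of the DMSO libraries (x axis), in pathway order (y axis; gray lines part the roles). Gray points are DMSO and red points ZW27941 libraries; OGDH and PC lie to the right, and MPC1 and ME1 spread most within a group.

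By place in the cell, 14 of 28 mitochondrial members were lower and 2 higher, with a median log2 fold change of −0.097. Of 5 cytosolic members, 1 was lower and 0 were higher by edgeR, also at an unadjusted p under 0.05 and by DESeq2, with a median of −0.067. With upper quartile normalization ACO1, IDH1 and GOT1 also passed as lower beside MDH1, and no difference between the places was tested. Ratios of paired members within a library do not depend on normalization. For 8 pairs, chosen like the members with earlier results of these data known, the difference of the mean log2 ratio between groups was tested. An exact two-sided permutation test over the 6 libraries was used, which cannot give a p below 0.1. The ratio of GOT1 to GOT2 was 0.486, 0.484 and 0.508 in DMSO and 0.432, 0.471 and 0.438 on ZW27941, lower in all 3 libraries (exact p = 0.1, adjusted over the 8 pairs 0.2). SUCLA2 to SUCLG2 was 1.09, 1.12 and 1.12 in DMSO and from 1.18 to 1.21 on ZW27941, higher in all 3 (exact p = 0.1, adjusted 0.2). The ratio of the kinase PDK2 to the phosphatase PDP1 was lower by 10.6% and that of IDH3A to IDH3B higher by 6.98%. Both were without overlap and had the same exact p. No pair held the kinase PDK1 or the phosphatase PDP2, at 85.2 and 53.3 CPM in DMSO against 10.5 for PDK2 and 19.8 for PDP1. These CPM are not scaled by exon length. PDP2 fell by 13.0% and PDK1 did not pass. MDH1 to MDH2 and IDH1 to IDH2 overlapped between groups, with differences in log2 ratio of 0.016 (exact p = 0.4) and −0.012 (exact p = 0.8). ME1 to ME2 and MPC1 to MPC2 also overlapped (differences of 0.19 and 0.070, exact p = 0.3 and 0.8).

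**Figure D5:**
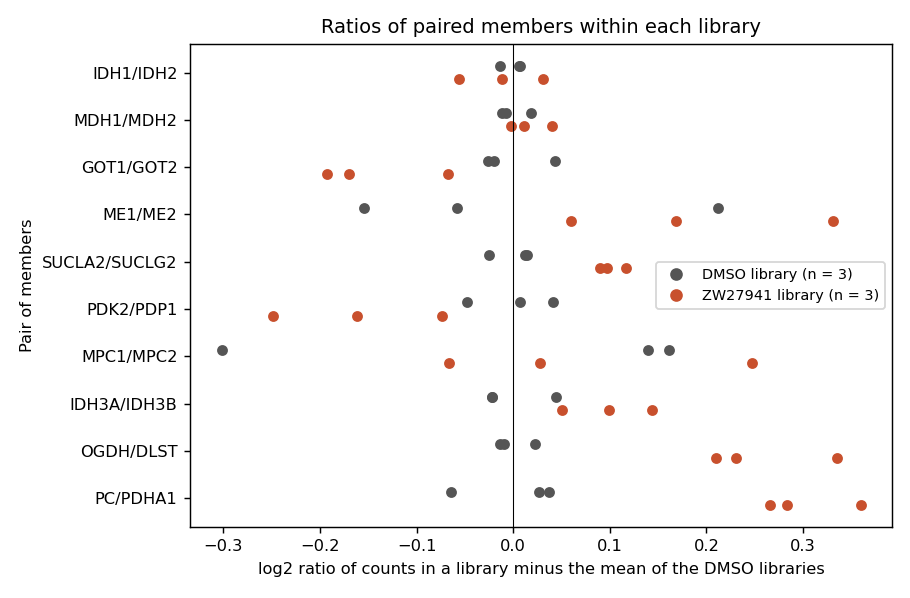
Log2 ratio of the counts of paired members in each library, minus the mean of the DMSO libraries (x axis), for 8 pairs and, at the bottom, 2 pairs chosen after their values were seen (y axis). Gray points are DMSO and red points ZW27941 libraries; GOT1/GOT2 and PDK2/PDP1 lie to the left and SUCLA2/SUCLG2, IDH3A/IDH3B, OGDH/DLST and PC/PDHA1 to the right.

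The other genes of the pathway, written as a list of 45 steps, regulators and transporters, had 41 tested. Of these, 10 were lower and 3 higher (24.4% and 7.32%), with a median log2 fold change of −0.049, and 15 were lower with upper quartile normalization. The list holds succinate dehydrogenase, the cycle enzyme that is also respiratory complex II. Its iron-sulfur subunit SDHB was at 63.1, 62.5 and 61.7 CPM in DMSO and 53.4, 55.3 and 54.7 CPM on ZW27941 (log2 fold change −0.20, edgeR quasi-likelihood, Benjamini-Hochberg adjusted p = 7.97e-06). SDHC had a log2 fold change of −0.088 and SDHA of −0.080 (edgeR, adjusted p = 0.00924 and 0.0226). SDHA was lost in 4 of the 6 fits without 1 library, those without DMSO replicates 2 and 3 and ZW27941 replicates 1 and 2 (edgeR, adjusted p = 0.0821, 0.0771, 0.0601 and 0.162). SDHD did not pass (log2 fold change −0.060) except with upper quartile normalization (edgeR, adjusted p = 0.0362).

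Transporters and regulators on this list also changed. SLC7A5, an amino acid exchanger that can use glutamine as its counter-substrate, fell from 197, 204 and 199 CPM to 172, 171 and 171 CPM (log2 fold change −0.22, edgeR quasi-likelihood, Benjamini-Hochberg adjusted p = 4.01e-07). PDP2, a phosphatase of pyruvate dehydrogenase, fell by 13.0%. SDHAF3, an assembly factor of succinate dehydrogenase, rose by 12.6%, GLUL, which makes glutamine from glutamate, by 8.21%, and SLC7A11, which trades glutamate for cystine, by 13.4%. The values of SLC7A11 overlapped between groups.

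Promoters were read for 33 of the 35 members in the RefSeq table for GRCh38.p14; OGDH and PDP1 had no entry. In the 250 bases before each start, on both strands, letters of 6 motifs were sought. The ETS core ACTTCCGG was in 3 of 33 members (9.09%) against 4.13% of 27305 genes, the E-box CACGTG in 4 (12.1%) against 7.73%, and the ATF4 element TGATGNAA in 3 (9.09%) against 3.89%. Letters of NRF1 (GCGCATGCG), of the ERR half-site (TCAAGGTCA) and of YY1 (AAGATGGC) were in none of the 33, against 2.02%, 0.388% and 1.64% of genes. The 120 bases before the RefSeq start are shown for the members that hold the ETS letters, MDH2 and IDH3B, which fell, and DLST, which did not pass, and for SLC25A11, which fell and holds the ATF4 letters. Capitals mark these letters. They lie at chr7:76047986-76048105 (plus strand) for MDH2, chr20:2664217-2664336 (minus strand) for IDH3B, chr14:74881796-74881915 (plus strand) for DLST and chr17:4940047-4940166 (minus strand) for SLC25A11.
MDH2: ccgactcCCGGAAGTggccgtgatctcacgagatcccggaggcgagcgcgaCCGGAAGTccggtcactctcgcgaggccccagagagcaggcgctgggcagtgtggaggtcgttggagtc
IDH3B: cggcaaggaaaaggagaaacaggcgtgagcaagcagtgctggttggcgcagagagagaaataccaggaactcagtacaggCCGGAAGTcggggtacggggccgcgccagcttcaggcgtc
DLST: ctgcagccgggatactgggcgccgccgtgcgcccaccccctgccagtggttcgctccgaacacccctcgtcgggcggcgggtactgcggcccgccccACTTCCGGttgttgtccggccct
SLC25A11: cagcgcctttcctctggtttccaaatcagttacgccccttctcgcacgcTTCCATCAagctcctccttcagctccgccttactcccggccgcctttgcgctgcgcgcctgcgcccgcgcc
MDH2 holds the ETS letters at 2 places, and IDH3B and DLST hold them at 1. SLC1A5, which also fell and is not shown, holds the ATF4 letters before 1 of its RefSeq starts and the E-box letters before another. DLST, GOT1, PDHB and PDK2 hold letters of a motif and did not pass, and most of the 16 members that fell hold none of the 6 motifs.

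In GENCODE v29, exons of 19 of the 35 members overlap exons of another gene, and since the strand setting is not given in the sources used here, their reads may have been shared or set aside as ambiguous. The largest such shares of exon bases among members that fell were 23.4% in SLC1A5 (AC008622.2), 22.5% in MPC2 (DCAF6) and 21.3% in PDHA1 (MAP3K15). The overlapping genes DCAF6 and MAP3K15 did not pass (log2 fold changes −0.014 and 0.27). OGDH overlaps no annotated exon of another gene. Across the 34 members, Spearman's correlation of exon length with log2 fold change was 0.338, against 0.058 over 15728 genes tested with a length, and the part of length in the results was not tested.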

How the data were processed

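RNA of 6 MOLM13 libraries, 3 per group, had been sequenced as paired reads. The deposited values are whole-number counts that the authors made with HTSeq 2.0.3, 1 per gene symbol, after HISAT2 alignment to hg38 and SAMtools 1.19.2 (submitters' processing notes). The HISAT2 version, annotation and strand setting are not given in the sources used here. HTSeq's 5 tallies were left out.

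Counts were fitted over all genes in R 4.3.3 with edgeR 4.0.16 (filterByExpr, TMM, quasi-likelihood test), with the Benjamini-Hochberg adjustment over the 20399 genes tested and a threshold of 0.05. CPM used TMM factors. The standard error came from the fold change and the F statistic. Members, pairs and lists were chosen with earlier results of these data known. Per-library values were given for the member of each role with the lowest p past the threshold and for members discussed beside it. In the list of other pathway genes, steps with no member and the 3 genes with the lowest p in each direction were named; some of these steps are not reported here. Alternatives were other normalizations, filters and tests (DESeq2 1.42.0), a replicate block and each library left out. The OGDH/DLST and PC/PDHA1 ratios were added after values were seen. Ratios used 0.5 added to each count.

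The fit was tested on simulated data (ZW27941 and DMSO, 3 libraries each, 20399 genes). Counts were drawn from the trend of spread against level fitted to these same data, with no further differences in spread between genes. Recovery and false calls are thus for a simpler case than the data. Of 100 genes changed by 0.2 on the log2 scale, 43 were recovered (43 of 53 at 5 CPM or more). Of 100 changed by 0.5, 61 were recovered (48 of 48), and 4 false calls were made. Apart from OGDH, the members that passed changed by less than 0.2, and such sizes were not simulated. Far fewer genes were changed in the simulation than passed in the data.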

Additional observations from a re-analysis of the deposited data

How the results depend on the processing

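The 18 calls among the members held, in the same direction, under RLE, upper quartile and library size only, both other filters, the replicate block and DESeq2. With 1 library left out, between 11 and 20 members were lower and 2 to 3 higher, 8 to 11 of the other pathway genes were lower, and between 2131 and 2883 of all genes were lower and 2691 to 3251 higher. The median log2 fold change of the members was −0.106 with upper quartile normalization and from −0.088 to −0.068 across the left-out libraries, and its distance from the median of all genes lay between −0.087 and −0.060 over all alternatives. Sign changes came from members near 0. DLST was 0.0078 with library size only and 0.0035 with no filter, and ran from −0.028 to 0.027 across left-out libraries, PDHX from −0.050 to 0.013 and ME1 from −0.054 to 0.15. The log2 ratio of IDH1 to IDH2 ran from −0.034 to 0.0098 and that of MPC1 to MPC2 from −0.081 to 0.15. The sign of the first changed without ZW27941 replicate 3 (0.0098), and that of the second without DMSO replicate 3 (−0.081) or ZW27941 replicate 3 (−0.019). The cause was not tested. Over all genes tested, deviations of same-numbered libraries had correlations of −0.012, 0.012 and 0.017. Weakly expressed genes are included, and their counting noise can hide a shared deviation, so this cannot show whether the numbers pair the libraries. With the replicate block, 16 members were lower and 2 higher, with a median log2 fold change of −0.083, and 2767 of all genes were lower and 3243 higher. ME3, at 3 counts in all, is below what this depth can compare.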
